A study of Oryza sativa with 12 samples.

Results

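The heat tolerant rice line 252 was set against the heat sensitive line 082 for genes whose signals kept the lines apart whatever the temperature. Both lines grew under a high temperature regime of 37 °C days and 30 °C nights, kept up for 5 days, or under an optimal regime of 30 °C days and 25 °C nights, and panicle RNA was hybridized to Affymetrix rice arrays in 1 colour. The 4 groups were line 252 at high temperature, line 082 at high temperature, line 252 at optimal temperature and line 082 at optimal temperature, with 3 arrays each that the labels call biological replicates. The labels give neither the pedigree of the lines nor the stage of the panicles, the time of day of sampling or the number of plants behind an array. The p-values therefore rest on these arrays alone. A gene was a member when its 6 arrays of one line all lay above the 6 arrays of the other, and this was met by 844 of 33610 probe sets bright enough to test, or by 414 of 16542 genes each read by its brightest probe set (254 genes, 1.54%, higher and 160, 0.967%, lower in line 252). Members were therefore chosen by the same line contrast that the line differences below describe.

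A gene level that differs between lines in every environment tested is usually called a constitutive difference, as opposed to a response to the environment. Rice panicles carry developing florets, in which hormone signalling (jasmonate, gibberellin, auxin and ethylene), sugar supply and germ cell development run side by side. Jasmonate signalling is held back by JAZ repressors, which are degraded when the hormone is bound by its receptor, and JAZ genes are themselves induced by the hormone. An array signal from a whole panicle is a mixture of tissues, so fewer cells of a type and less RNA per cell cannot be told apart.

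Marker genes of panicle tissues were read beside the tissue label. Of 31 genes of the MADS-box list 21 lay above the array median on all 12 arrays, among them MADS1, MADS15 and MADS16. Of all kept probe sets 60.8% did so, and this count alone therefore does not mark the tissue. Grain markers (14 of 16 found, GLUB-4 below the median on every array) summed to 289 to 879 on line 252 arrays against 305 to 337 on line 082 arrays at high temperature. At optimal temperature the same sum was 614 to 12604 in line 252 against 238091 to 316250 in line 082. Pollen grain wall enzymes (4 of 6 found) summed to 137 to 457 in line 252 against 116 to 141 in line 082 at high temperature, and to 6904 to 10507 against 876 to 1805 at optimal temperature. There EXPB9 (mean 7220 against 547), EXPB10 and EXPB17 were higher in line 252, and PMEI8 was lower (95.2 against 521). No marker of grain, pollen grain wall, tapetum (6 of 8 found) or green tissue (4 of 7 found) was separated. The 18S rRNA control signal was 10300 to 11340 in line 252 against 6901 to 10320 in line 082 at high temperature, and 980.2 to 1357 against 18320 to 25250 at optimal temperature. Of 187 control and reporter probe sets 0 were separated with line 252 higher and 2 with line 252 lower. The part of these shifts in the line differences was not tested.

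In the additive model of line and temperature, 978 probe sets (2.91%) were higher and 764 (2.27%) lower in line 252 at an adjusted p under 0.05 and a log2 difference of at least 1. Full separation held for 472 probe sets (1.4%) with line 252 higher and 372 (1.11%) with line 252 lower. With each array centred on its 75th percentile, which lowered the median line difference of all probe sets by 0.11, the calls were 704 higher and 1004 lower, and the separated probe sets 283 higher and 468 lower. Leaving out 1 array at a time gave 284 to 430 calls higher and 342 to 406 lower without an optimal array, and 898 to 1533 higher and 739 to 1100 lower without a high temperature array. Both criteria were met by 237 probe sets (0.705%) higher and 270 (0.803%) lower in line 252, or 157 and 337 with that centring. Read by 1 probe set a gene, 123 genes (0.744%) were higher and 97 (0.586%) lower. Most of these genes carry only a locus number, and 24 of 2335 genes with a name (1.03%) met both criteria, 17 higher and 7 lower in line 252. All log2 differences are of the signal plus 16, line 252 minus line 082, with the standard error of the fit.

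The widest gaps belonged to genes that gave a strong signal in one line and almost none in the other. LOC4340120, a protein-coding gene with no name in the annotation, read 37.0, 5.04 and 5.70 in line 252 against 11272, 16069 and 11803 in line 082 at high temperature. Under optimal conditions it read 24.8, 21.2 and 6.61 in line 252 against 2332, 1215 and 551 in line 082. Every line 252 array lay below the median of its array and every line 082 array far above it, a log2 difference of −6.99 ± 0.61 (adjusted p = 3.01e-05). The gap was wider at high temperature (−8.80 ± 0.47) than at the optimal one (−5.18 ± 0.47), and the change between temperatures passed its test (adjusted p = 0.0018).

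LOC9266843, annotated as an RNA gene without a protein, kept its gap more evenly. It read 66.3, 43.0 and 31.0 in line 252 against 6831, 1931 and 6213 in line 082 at high temperature, and 42.4, 26.8 and 43.5 against 6306, 6942 and 5451 at optimal temperature. The difference was −6.52 ± 0.30 (adjusted p = 8.88e-08), with −6.16 ± 0.39 at high and −6.88 ± 0.39 at optimal temperature, and the change between the temperatures did not pass (adjusted p = 0.36). Because the line 252 signals of both genes sit near the background, these sizes hold for the added 16: with 64 added they were −5.65 for LOC4340120 and −5.64 for LOC9266843.

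The largest locus-number differences in the other direction were near background in line 082 at one temperature only. LOC4348459 read 940, 1201 and 1565 in line 252 against 8.54, 8.46 and 5.21 in line 082 at high temperature, and 1606, 1795 and 1822 against 166, 421 and 322 at optimal temperature. The lines never overlapped, and the difference was larger at high temperature (5.71 ± 0.29) than at optimal temperature (2.55 ± 0.29; adjusted p of the change = 1.60e-04). In LOC4347149 the temperatures were the other way round. It read 3435, 3258 and 4363 in line 252 against 2598, 515 and 1166 in line 082 at high temperature, and 3438, 3579 and 3466 against 5.04, 2.33 and 5.23 at optimal temperature, a log2 difference of 4.54 ± 0.87 (adjusted p = 0.0119). By this probe set line 252 read level at both temperatures, while line 082 read near background at optimal temperature only. The difference was 7.44 ± 0.40 there and 1.64 ± 0.40 at high temperature. The 3 other probe sets of the gene gave smaller differences of 0.53, 1.13 and 1.99, and the last of these was separated. The one at 0.53 ± 0.11 had a mean signal of 1580, beside 2150 for the probe set above, so the near absence rests on 1 probe set.

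**Figure D1:**
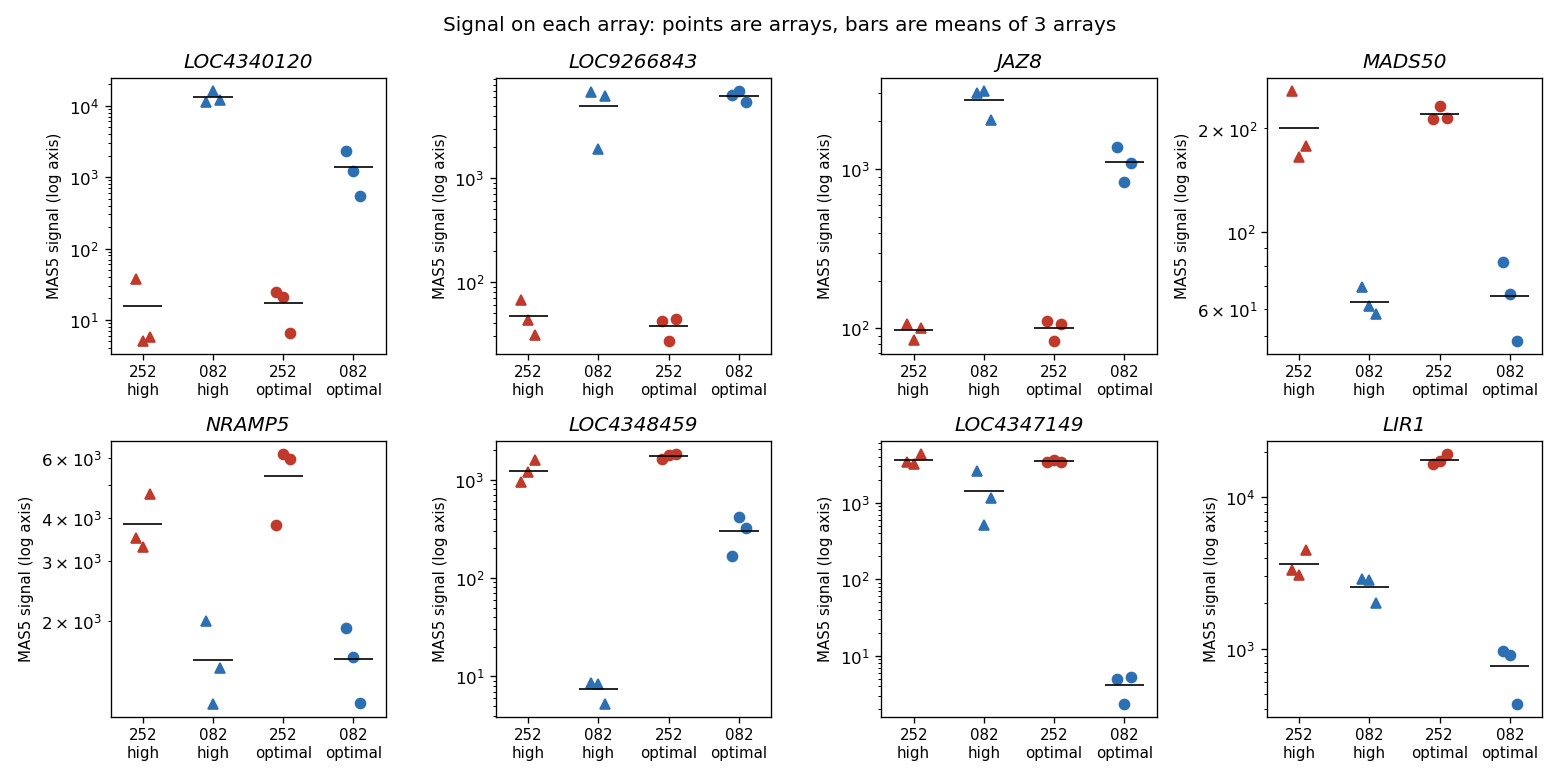
MAS5 signal of 8 separated genes on each of the 12 arrays (log axis), with line 252 left of line 082 at each temperature and bars at the mean of 3 arrays. LOC4340120, LOC9266843 and JAZ8 lie lower in line 252 and the other genes higher, and in no panel do the 6 arrays of one line reach those of the other.

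Over the whole set this imbalance was general. Of the called and separated probe sets, 45 of the 270 lower in line 252 (16.7%) differed by at least 4 on the log2 scale, against 7 of the 237 higher in line 252 (2.95%). With the arrays centred on the 75th percentile, quantile normalized or scaled to the hybridization spikes, these counts were 49, 45 and 39 lower against 6, 7 and 7 higher. Lying above the array median on all arrays of line 252 and on none of line 082 was seen for 9 of 507 called and separated probe sets, and the reverse, all arrays of line 082 and none of line 252, for 78 of 507 (15.4%). Over all 33610 probe sets these on-or-off patterns were found 11 and 80 times. Such a pattern nearly entails full separation, so the rule itself placed most of them among the members. The median line difference was 1.48 among called and separated probe sets higher and −2.21 among those lower in line 252. Their call itself required a size of at least 1. Among all separated probe sets the medians were 1.0 and −1.56, and over all probe sets 0.07.

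The probe set with the largest difference of all, Os.38457.1.S1_s_at, has no gene in the annotation, and it was picked out after its values were seen. It read 13.4, 22.5 and 1.64 in line 252 against 23375, 22271 and 20200 in line 082 at high temperature, and 60.7, 49.6 and 79.4 against 16605, 22085 and 20977 at optimal temperature. The largest in the other direction, Os.10715.1.S1_a_at, also without a gene and also picked afterwards, read 1695, 2056 and 1957 in line 252 against 17.5, 3.05 and 2.35 in line 082 at high temperature. In the optimal regime it read 893, 856 and 770 against 5.27, 1.67 and 1.14. Both were present in one line and near background in the other at either temperature. Of the called and separated probe sets 52.9% had a single annotated gene, beside 59.3% of all probe sets.

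JAZ8, a jasmonate repressor, gave the largest difference among the named genes. JAZ8 (LOC4347164, which the annotation also lists as OsJAZ7 and JAZ9) read 106, 84.9 and 101 in line 252 against 3042, 3113 and 2030 in line 082 at high temperature, and 112, 83.1 and 106 against 1385, 835 and 1099 at optimal temperature. Line 252 stayed on one low level at both temperatures, and the lines were 2.73 apart on the log2 scale at their nearest arrays. The difference was −3.91 ± 0.25 (adjusted p = 2.00e-06), −4.58 ± 0.23 at high and −3.25 ± 0.23 at optimal temperature, with a change between temperatures that passed (adjusted p = 0.0077).

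JAZ2 (LOC4342421), a second repressor of the family, was also lower in line 252 on every array but at far dimmer signals. It read 18.4, 42.2 and 35.2 in line 252 against 261, 75.1 and 91.8 in line 082 at high temperature, and 56.3, 2.56 and 2.68 against 433, 806 and 763 at optimal temperature. Its difference of −3.04 ± 0.57 (adjusted p = 0.0105) became −2.07 with 64 added. Within temperatures JAZ2 passed at optimal temperature (−4.50 ± 0.55) and not at high temperature (−1.58 ± 0.55; adjusted p = 0.22). Of the 31 measured genes of the jasmonate and lipoxygenase list 0 were called higher and 2 lower, both of them these JAZ genes, where 3.52% of all measured genes were called higher and 1.88% lower. Another member, JAZ3, was separated with line 252 higher without passing the call, at 925 to 1460 in line 252 against 462 to 908 in line 082 (0.57 ± 0.18). The list's median was 0.34, beside 0.12 over all measured genes.

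Single genes of gibberellin, auxin and ethylene signalling were also members, SLR1, ARF8 and ERS2, each higher in line 252. SLR1 (LOC4333860), the DELLA repressor of gibberellin responses, averaged 1351 ± 283 (SD, n = 3) in line 252 against 965 ± 79.2 in line 082 at high temperature, and 2600 ± 670 against 511 ± 114 at optimal temperature. Its line difference of 1.38 ± 0.31 (adjusted p = 0.0231) came mainly from optimal temperature (2.30 ± 0.22, against 0.46 ± 0.22 at high temperature). The auxin response factor gene ARF8 averaged 2957 ± 480 against 2220 ± 354 at high temperature and 6223 ± 1714 against 1320 ± 383 at optimal temperature (line difference 1.32 ± 0.31). The ethylene receptor gene ERS2 averaged 868 ± 164 against 611 ± 107 and 1455 ± 237 against 373 ± 122 in the same order (1.22 ± 0.27). For SLR1, ARF8 and ERS2 the line difference at high temperature alone did not pass, and the change between temperatures did (adjusted p of 0.0011, 0.0022 and 0.0060). Of 56 measured genes of the auxin list 2 were called higher (ARF8 and ARF10) and 1 lower (GH3-8, −1.79), near the 3.52% and 1.88% over all measured genes, and ARF8 alone was separated. Leaving out any 1 of the 6 optimal arrays ended the call of SLR1 and ARF8 (adjusted p up to 0.061 and 0.075), and 4 of these arrays did so for ERS2 (up to 0.061).

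MADS50, NRAMP5 and G-TMT were higher in line 252 at each temperature taken alone, with a change between temperatures that did not pass. MADS50 (LOC4331445), a promoter of flowering related to SOC1 of Arabidopsis, read 257, 165 and 178 in line 252 against 69.5, 61.0 and 57.9 in line 082 at high temperature, and 213, 233 and 214 against 81.9, 66.4 and 48.3 at optimal temperature. Both lines held their level, so the difference of 1.49 ± 0.17 (adjusted p = 3.85e-04) was 1.43 ± 0.24 at high and 1.55 ± 0.24 at optimal temperature. Of 26 measured genes of the MADS-box list 2 were called higher and 1 lower, beside 3.52% and 1.88% over all measured genes. MADS50 was the one separated.

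NRAMP5 (LOC4342859), the manganese transporter through which rice roots also take up cadmium, read 3512, 3297 and 4706 in line 252 against 2004, 1142 and 1462 in line 082 at high temperature. In the optimal regime it read 3835, 6174 and 5984 against 1908, 1575 and 1154, so the lowest line 252 array read 3297 and the highest line 082 array 2004. The difference was 1.55 ± 0.19 (adjusted p = 6.05e-04) and its change between temperatures did not pass (adjusted p = 0.39). YSL14, of a family of metal-chelate transporters, averaged 1890 ± 88.5 against 1212 ± 75.2 at high temperature and 1748 ± 252 against 511 ± 208 at optimal temperature (1.22 ± 0.23, adjusted p = 0.0109). In the ion and nitrogen transporter list of 88 measured genes 5 were called higher and 0 lower, where 3.52% and 1.88% of all measured genes were, and NRAMP5, YSL14 and the ABC transporter gene ABCG39 were separated. ABCG39 differed by only 0.38 ± 0.12 and was not called. NCL1, of a family of sodium and calcium exchangers, was higher in line 252 (1.14 ± 0.21), and its second probe set was separated too (1.51 ± 0.28).

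G-TMT (LOC4330437), the methyltransferase that makes alpha-tocopherol, read 5167, 5448 and 5634 in line 252 against 2977, 2786 and 2052 in line 082 at high temperature, and 4303, 4336 and 4108 against 1725, 1046 and 1070 at optimal temperature. The replicates of line 252 were close together and well above those of line 082, a difference of 1.41 ± 0.17 (adjusted p = 4.40e-04). The next measured gene along the chromosome, LOC4330438, was separated the same way (2.10 ± 0.16). A second, far dimmer probe set of LOC4330438 gave −0.32 ± 0.22 without separation.

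LIR1 and PORA were separated too, with most of the gap at optimal temperature. LIR1 (LOC4326442), a light-induced chloroplast protein, read 3287, 3091 and 4482 in line 252 against 2872, 2826 and 2002 in line 082 at high temperature, and 16530, 17288 and 19299 against 972, 909 and 431 at optimal temperature. The lines nearly met at high temperature (0.49 ± 0.27, adjusted p = 0.50) and were far apart at optimal temperature (4.57 ± 0.27, adjusted p = 1.04e-07). PORA (LOC4337415), the light-dependent protochlorophyllide reductase, followed the same course, at 883 ± 88.0 against 485 ± 103 at high temperature and 3762 ± 1283 against 182 ± 96.1 at optimal temperature. Its line difference was 2.59 ± 0.54 (adjusted p = 0.0174), that of LIR1 was 2.53 ± 0.61 (adjusted p = 0.0301), and the change between temperatures passed for both. The call of LIR1 was lost without any 1 of the 6 optimal arrays (adjusted p up to 0.079) and that of PORA without the second optimal array of line 252 (0.0501). Of the 9 measured genes of the photosynthesis list 0 were called or separated, where 3.52% of all measured genes were called higher and 1.88% lower. Green tissue markers summed to 57033 to 66513 in line 252 against 62469 to 78405 in line 082 at optimal temperature.

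A pair of chitinases, enzymes that cut the chitin of fungal walls, was among the largest named differences upwards. Chia1d (LOC4338720) read 97.2, 151 and 349 in line 252 against 20.0, 47.4 and 25.7 in line 082 at high temperature, and 3206, 404 and 496 against 40.0, 96.2 and 84.9 at optimal temperature. A single optimal array of line 252 stood far above its replicates, and the nearest arrays of the lines were 0.01 apart on the log2 scale. Its difference of 2.71 ± 0.51 (adjusted p = 0.0106) was 2.09 with 64 added. Cht6 averaged 452 ± 221 against 218 ± 101 at high temperature and 1706 ± 584 against 105 ± 84.8 at optimal temperature (2.60 ± 0.64, adjusted p = 0.0322), and it lost its call without any 1 of 5 optimal arrays (up to 0.084). Of the 27 measured genes of the resistance and receptor list 5 were called higher and 2 lower, where 3.52% and 1.88% of all measured genes were. Called lower were CEBIP, a chitin-binding receptor protein (−1.09), and a further gene with a chitinase symbol, Chib3H-h (−2.29 ± 0.56, adjusted p = 0.0316), neither of them separated. Separated were 3 genes, both chitinases above and the co-receptor kinase gene BAK1 (0.58 ± 0.14).

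SWEET14 and AGPS2, of sugar transport and starch synthesis, were lower in line 252. SWEET14 (LOC4350572), a sugar exporter that bacterial blight strains switch on in leaves, read 687, 816 and 591 in line 252 against 949, 1092 and 1058 in line 082 at high temperature, and 325, 358 and 482 against 1674, 1477 and 1870 at optimal temperature. The gap was present at high temperature and wider at optimal temperature (−0.57 ± 0.18 and −2.08 ± 0.18; line difference −1.32 ± 0.25, adjusted p = 0.0116), and a second probe set of the gene gave −1.28 ± 0.20. AGPS2 (LOC4345339), a small subunit of the ADP-glucose pyrophosphorylase that starts starch synthesis, read 6819, 6935 and 7044 against 7220, 8085 and 7629 at high temperature. At optimal temperature it read 6227, 3553 and 3247 against 19002, 27223 and 23929. Its separation at high temperature was slight (−0.14 ± 0.21) and its difference at optimal temperature large (−2.47 ± 0.21), where the grain markers given above were also higher in line 082. Their part in AGPS2 was not tested, and its call (−1.31 ± 0.36, adjusted p = 0.0454) was lost without any 1 of the 6 optimal arrays (up to 0.111). Of 12 measured starch genes AGPS2 was the one called (median of the list −0.63). Of 22 sugar transport genes 1 was called higher and SWEET14 lower (median 0.17). Over all measured genes 3.52% were called higher and 1.88% lower, with a median of 0.12.

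MEL1 (LOC4334449), an Argonaute protein of rice germ cells before meiosis, read 107, 152 and 227 in line 252 against 106, 63.0 and 52.0 in line 082 at high temperature, and 361, 256 and 361 against 48.8, 81.0 and 52.6 at optimal temperature. The difference was 1.57 ± 0.28 (adjusted p = 0.0085), and the lowest line 252 array stood barely above the highest line 082 array. MEL1 is itself one of 5 meiocyte markers found of 8, whose sum was 453 to 1484 against 483 to 542 at high temperature and 4374 to 5218 against 2477 to 3905 at optimal temperature. The other meiocyte markers (SPO11-4, CRC1, MER3 and ASY1) were not separated. At optimal temperature SPO11-4 averaged 3560 in line 252 against 2330 in line 082, and MER3 223 against 111. CRC1 was level there (278 against 279) and ASY1 lower in line 252 (295 against 374).

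Most of the remaining named members differed less. Higher in line 252 were mdr17, an ABC transporter gene (1.39 ± 0.30), and DAPB2, of lysine synthesis (1.27 ± 0.27), and, outside the naming rule and picked after their values were seen, MRL7 (1.02 ± 0.16) and CNIH1 (1.01 ± 0.17). Lower in line 252 were ITPK4, an inositol phosphate kinase (−1.55 ± 0.29), XBOS36, an ankyrin-repeat ubiquitin ligase (−1.02 ± 0.23), and TGAL7, a bZIP factor (−1.01 ± 0.23). XBOS36 went against the others in that its gap was larger at high temperature (−1.58 ± 0.24) than at optimal temperature (−0.47 ± 0.24). Leaving out 1 array ended the calls of TGAL7 (any optimal array, adjusted p up to 0.066), XBOS36 (5 arrays), mdr17 (2 arrays) and NCL1 (1 array, where the difference fell to 0.98).

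**Figure D2:**
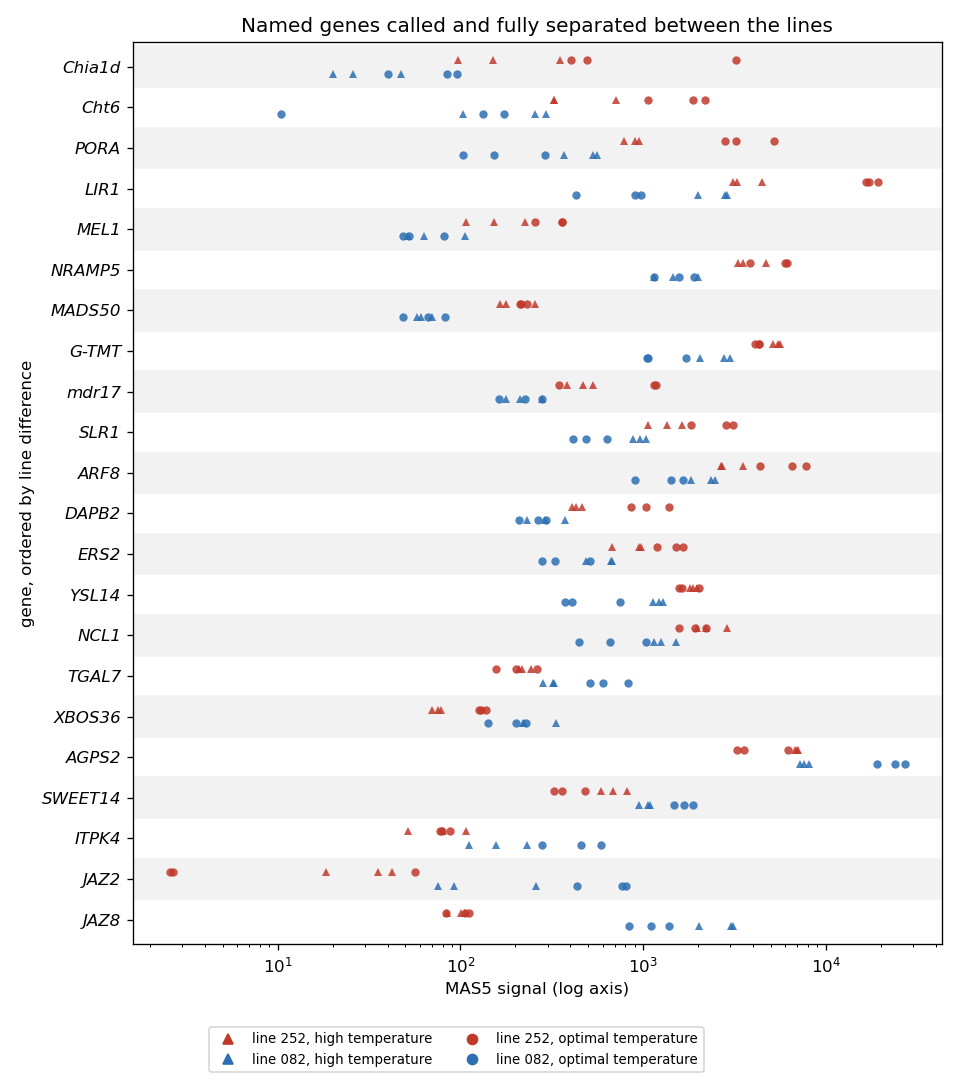
MAS5 signal (log axis) of 22 named genes that were called and separated, 1 point for each of 12 arrays, with line 252 above line 082 in each row. In every row the red points of line 252 lie wholly on one side of the blue points of line 082, with gaps from 0.01 for Chia1d, ERS2 and MEL1 to 2.73 for JAZ8 on the log2 scale.

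Just inside the rule stood BAK1 and MEL1, with a distance of 0.01 between the nearest arrays of the lines on the log2 scale. BAK1 read 1688 as its lowest line 252 array against 1681 as its highest line 082 array. Just outside stood 2 called genes, the heme oxygenase gene HO2 (1.22 ± 0.26, overlapping by 0.04) and BZIP52 (−1.63 ± 0.32, overlapping by 0.08). HO2 averaged 1476 ± 149 against 350 ± 30.7 at high temperature but 1047 ± 224 against 773 ± 95.2 at optimal temperature. A further 21 named genes were separated without being called, OsCASPL5A1 with the deepest difference downwards and wsl3 upwards (0.99 ± 0.18).

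Chaperone and other stress genes were described by the same counts. Of 18 measured small heat shock proteins 0 were separated and 0 called higher, while 2, HSP18.6 (−2.15) and HSP23.2 (−1.23), were called lower in line 252. Of 20 heat stress factors 1, HSF12, was called higher, beside 3.52% of all measured genes, and 0 were separated. The 12 HSP70, HSP90 and Clp chaperones gave 0 calls and 0 separated genes by their brightest probe sets. Of 8 dehydrin and LEA genes 4 were called lower and 0 were separated, and of 9 seed storage genes 2 were called lower and 0 were separated, where 1.88% of all measured genes were called lower. Among those called lower, EM, RA5 and RA14 are also grain markers, with means of 87.6, 13.2 and 24.9 in line 252 against 8940, 19700 and 26800 in line 082 at optimal temperature. Over all 33 lists 12 of 887 measured genes were called and separated (1.35%), beside 1.33% of all measured genes. Listed pathways thus held about the share found over all genes.

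Although separation fixes one direction at both temperatures, the size often differed. The change of the line difference with temperature passed for 228 of 507 called and separated probe sets, against 30.7% of all probe sets. Differences at the 2 temperatures lay within 0.5 of each other for 109 (21.5%), against 34.4% of all separated and 39.5% of all probe sets. These shares are not alike in size of difference. The called and separated probe sets had to differ by at least 1, while the median absolute difference of all probe sets was 0.34. Among those higher in line 252 the gap was larger at optimal temperature for 189 of 237 (79.7%), against 154 of 270 (57.0%) among those lower in line 252 and 75.6% of all probe sets. A call at each temperature taken alone was reached by 60 of 237 called and separated probe sets higher (25.3%) and 162 of 270 lower in line 252 (60.0%). The share over all probe sets was not counted. Those lower in line 252 also had larger differences (median −2.21, against 1.48), so these 2 shares are not alike in size of difference either. Temperature effects were called for 61 of 507 called and separated probe sets, against 9.88% of all probe sets called higher and 19.8% called lower at high temperature. A large temperature effect leaves little room for full separation.

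**Figure D3:**
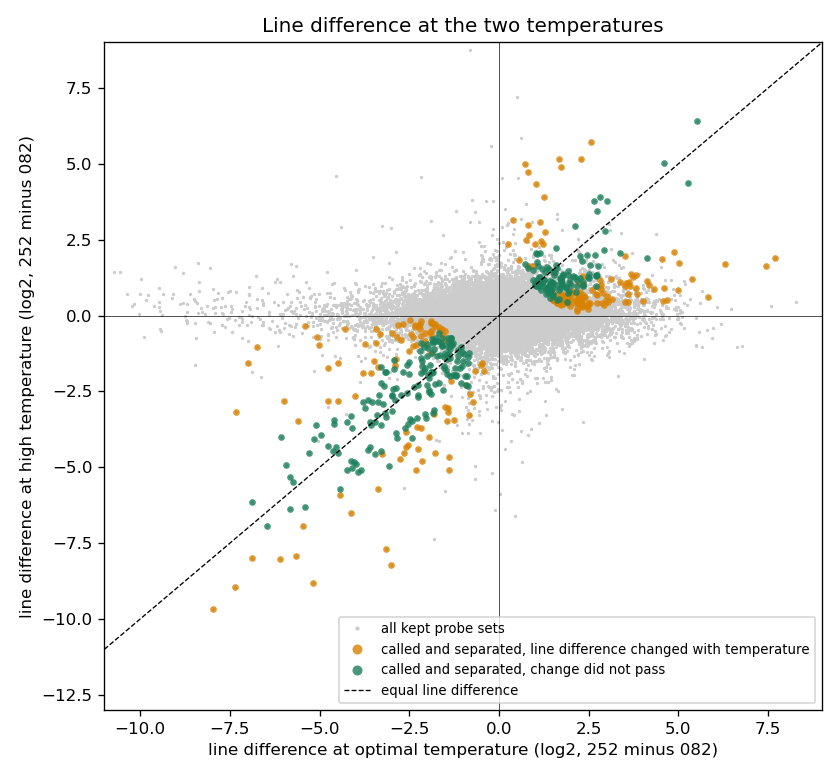
Line difference at high temperature (vertical axis, log2, 252 minus 082) against that at optimal temperature (horizontal axis), with all 33610 kept probe sets in grey and the 507 called and separated ones in colour. As separation requires, the coloured points lie in the lower left and upper right parts only, those lower in line 252 spreading along the dashed line of equal difference. Of the 507, 228 (orange) changed with temperature.

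Other probe sets of the same genes were also read, with each gene entered by its brightest called and separated probe set. The 268 called and separated probe sets with a single gene belonged to 248 genes. Some of the other probe sets thus met the rule themselves, and the counts below are not independent of the choice of members. Of 248 genes with a called and separated probe set, 69 had a further 106 kept probe sets, of which 89 had the same sign, 30 were called the same way and 3 the opposite way (of CARA, LOC4330169 and LOC4335579), and 25 were separated the same way and 0 the opposite way. For genes higher in line 252 the other probe sets had a median difference of 0.92, beside 1.49 for the brightest called and separated ones. For genes lower in line 252 the medians were −0.43 and −1.78. The short probes of an Affymetrix array read only stretches of a transcript, and probe match and transcript level cannot be told apart in a line whose sequence was not used here.

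Some named genes were members by one probe set only, and these were picked after their values were seen. CARA was lower in line 252 by one probe set (−2.09), higher by another (1.52) and lower by 0.51 by its brightest. HSP81-3, of the HSP90 family, was separated by one probe set (−1.54), while its brightest gave −0.35. The phosphate transporter gene PHT1-8 was separated by a dim probe set (1.47), and its brighter probe sets gave 1.64 and 1.75 without separation.

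**Figure D4:**
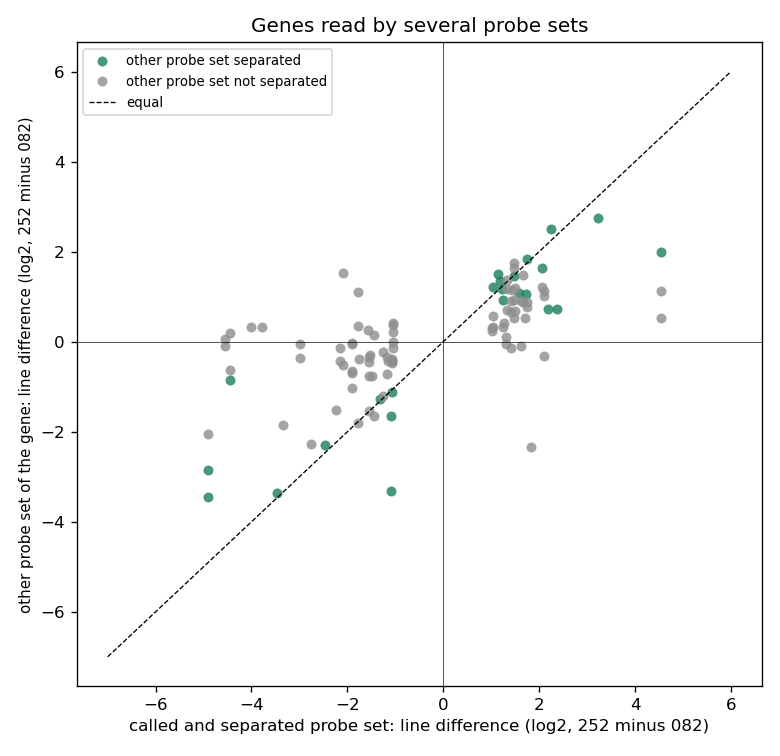
Line difference (log2, 252 minus 082) of the other kept probe sets of a member gene (vertical axis), for 106 probe sets of 69 genes. The horizontal axis gives that of the brightest called and separated probe set, and some of the others met the rule too. Most points share the sign of the member probe set, but those left of 0 lie mainly above the dashed line of equality, nearer to 0.

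Some members were neighbours on a chromosome. Along the chromosomes, 20 of 220 called and separated genes (9.09%) had another such gene as the nearest measured neighbour on either side, always of the same direction, against 409 of 16320 other genes (2.51%), a difference that was not tested. There were 9 such runs, 2 of them of 3 genes. One held LOC4347147, LOC4347149 and LOC4347150, all higher in line 252 (1.87, 4.54 and 4.01), and another LOC4327840, LOC4327841 and LOC4327842, all lower (−4.44, −1.13 and −2.52). LOC4340120, described above, neighboured LOC4340119, which was also lower (−1.34). Whether neighbouring copies share probes was not tested.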

How the data were processed

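The authors deposited linear intensity values, which came from MAS5 according to the submitters' processing notes. Its version and target level are not given in the sources used here. All 12 arrays had a trimmed mean of 500.1, and replicate correlations were 0.948 to 0.977. Array medians were 36.5 to 41.9 under heat and 55.2 to 68.4 in the optimal regime, without overlap. The Dap control ratio averaged 12.87 (line 252) and 12.13 (line 082) under heat, but 1.624 and 1.862 in the optimal regime. Both measures thus split by temperature, and their part in changes of the line difference between regimes was not tested. Probes were joined to genes through the platform annotation and a RefSeq table (22436 of 57381 probe sets with 1 gene). After setting aside 187 control and reporter probe sets, those above the array median on at least 3 arrays were kept (33610). On log2(signal + 16), limma 3.58.1 (R 4.3.3, empirical Bayes with trend) fitted line plus temperature, or 4 group means for differences within a temperature and their change. Benjamini-Hochberg adjustment ran over all kept probe sets. The fit was tested on simulated data.

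Gene lists and members were chosen with earlier results of these data known. Named were, by brightest probe set, up to 15 called and separated named genes per direction by size, up to 3 per list, up to 5 per direction with a difference of at least 2 and the smallest change, the 2 nearest inside and 2 nearest outside separation, and 2 locus numbers per direction.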

Additional observations from a re-analysis of the deposited data

Results flagged for a closer look

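Line differences that passed a test of change with temperature are given here as high minus optimal (log2). The test was passed by 228 of the 507 called and separated probe sets. Among genes lower in line 252 a negative change means a wider gap at high temperature, and it was −3.62 for LOC4340120, −1.33 for JAZ8 and −1.11 for XBOS36. A narrower gap at high temperature was found for JAZ2 (2.92), AGPS2 (2.33), SWEET14 (1.51) and TGAL7 (1.14). Among genes higher in line 252 the gap was narrower at high temperature for LOC4347149 (−5.81), LIR1 (−4.08), PORA (−3.45) and Cht6 (−3.17). The same held for SLR1 (−1.84), ARF8 (−1.82), DAPB2 (−1.49), ERS2 (−1.46) and YSL14 (−1.17). For LOC4348459 the gap was wider at high temperature (3.16). Groups of 3 arrays were too small for the test of single outlying arrays.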

How the results depend on the processing

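The number of arrays limits the precision, and genes near background have sizes set by the added 16. None of 719 refits of the 29 named genes reversed a direction; 629 kept the side of the call and 90 lost it. The 8 genes that kept it in every refit were LOC4340120, LOC9266843, JAZ8, BAK1 (not called in any), G-TMT, MADS50, NRAMP5 and LOC4348459. With 1 array left out, 11 genes lost their call, as given in the text.

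Same-numbered arrays deviated together in 2 of 18 pairs (correlations of −0.203 to 0.126, with 0.1 as the bound), so the numbers were not taken as pairs. With the replicate block, 397 probe sets were called higher and 379 lower, and 410 of 507 called and separated probe sets remained. The block ended the calls of AGPS2, ARF8, Cht6, ERS2, LIR1, SLR1, TGAL7 and XBOS36. Averaging 4 group means gave 1990 calls higher and 1772 lower (1931 and 1749 without an intensity trend), since a line difference that varies with temperature then adds nothing to the residual spread, and 507 of 507 remained. Array weights gave 386 higher and 418 lower, and no fold minimum 1849 and 1192, with 426 called and separated higher. A filter at the 75th percentile gave 594 and 454 calls, 307 and 219 separated, and 143 and 148 of both. Centring on the 75th percentile gave 283 separated higher and 468 lower, and 157 of both higher, and scaling to the hybridization spikes 310 separated higher. With 1 probe set per gene, 678 were called higher and 362 lower, 254 and 160 separated, 123 and 97 both, and 125 changed with temperature. The shares over all measured genes given in the text instead use the adjusted p over all kept probe sets, at which 583 genes were called higher and 311 lower.

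High temperature arrays alone gave 153 calls higher, 349 lower, 3570 and 2901 separated, and 153 of both higher. Optimal arrays alone gave 5074 and 4023 calls, 10295 and 7790 separated, and 5019 and 3978 of both; the cause of the larger counts was not tested. Leaving out each array in turn gave 284 to 1533 calls higher and 342 to 1100 lower, 498 to 744 separated higher and 394 to 497 lower, 160 to 396 of both higher and 240 to 348 lower, and 124 to 302 changed with temperature. Calls higher numbered 284 to 430 without any 1 optimal array and 898 to 1533 without any 1 high temperature array, and calls lower 342 to 406 and 739 to 1100.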
